A study of Mus musculus with 6 samples.

Results

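The chemokine genes Xcl1, Ccl3, Ccl4 and Ccl5 were followed in immune cells of mouse pancreatic tumors, and they are 4 of the 34187 gene features of the count matrices. They were selected by name as chemokines that lymphocytes secrete and were read in the 12 annotated clusters of T and NK cells under each treatment, with Ccl3 and Ccl4 read in myeloid cells as well. The identifiers in the matrices are ENSMUSG00000026573 for Xcl1, ENSMUSG00000000982 for Ccl3, ENSMUSG00000018930 for Ccl4 and ENSMUSG00000035042 for Ccl5. In the RefSeq gene table of another build (GRCm38.p6), Xcl1 lies on chromosome 1 and the other members on chromosome 11, where Ccl3 and Ccl4 are neighbours on opposite strands with overlapping spans. A 5' kit keeps the strand of a transcript, and whether the overlap moved any read between Ccl3 and Ccl4 was not tested.

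Chemokines are small secreted proteins that guide leukocytes through receptors on the cell surface. XCL1 comes mainly from NK cells and activated CD8 T cells and binds XCR1, a receptor of cross-presenting dendritic cells. CCL3 and CCL5 bind CCR1 among other receptors, and CCL3, CCL4 and CCL5 draw monocytes, T cells and NK cells into tissue. Activated macrophages, neutrophils and lymphocytes transcribe Ccl3 and Ccl4 within a short time, whereas Ccl5 is typical of memory and effector T cells and of NK cells.

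The mice, male and female C57BL/6 animals by the study's methods, carried subcutaneous tumors of 6694c2vTRP1 cells, a pancreatic ductal adenocarcinoma line, and were treated from day 8 in 2 doses, with tumors collected on day 14. The groups received PBS, mono-IL10 at 26 µg per mouse (a monomeric IL-10) or IL10/2-Trikine at 30.6 µg per mouse (the same monomer fused to a binder that also recruits the IL-2 receptor beta chain). Their age, and the sex of each mouse, are not given for this experiment in the sources used here. Cells carrying CD45, the marker of leukocytes, had been isolated with beads, labeled with 1 hashtag per mouse and pooled, so that each treatment of 5 mice was 1 droplet library and treatment cannot be told apart from library. Of the T and NK cells that the authors annotated, 516 were in the PBS library, 843 in the mono-IL10 library and 725 in the IL10/2-Trikine library, and 348, 635 and 400 of these had a mouse assigned. Median depth in the annotated cells was 2780, 3959 and 2635 UMIs (unique molecular identifiers, which count captured transcripts). Pairs of libraries had 408 to 700 barcodes in common, and 0 of them were annotated cells in both. Myeloid cells were named here from marker genes and carry the ending "-like", and the tumor epithelial-like cells that remained after the CD45 isolation gave the background from free RNA.

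Levels below are CPM, the UMIs of a gene per 1000000 UMIs of the summed cells of 1 mouse. Log2 fold changes and adjusted p-values come from edgeR's quasi-likelihood test on these sums over all genes that passed its filter on low counts, with Benjamini-Hochberg adjustment, and a change was called at an adjusted p under 0.05. The comparisons share groups: the PBS mice stand in both comparisons with PBS, so these are not independent of each other. The median fold change over all genes tested lay between -0.03 and 0.01 on the log2 scale.

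Xcl1 and Ccl5 had different places among the annotated clusters. The orders below cover the 8 clusters with values in at least 3 mice. Xcl1 was highest in the NK cluster, with a mean of 2070 CPM ± 1008 (SD, n = 15 mice), followed by the gdT/NKT cluster at 1976 ± 1197 (n = 12) and the Cycling_T cluster at 1080 ± 797 (n = 14). Lower means were found in Cycling_NK cells at 556 ± 273 (n = 4) and activated CD4 T cells (act_CD4T) at 541 ± 559 (n = 9). The 4 Cycling_NK mice were all IL10/2-Trikine mice, and the few cells of this cluster in the other groups, summed over mice, had 4324 CPM in PBS (4 cells) and 3426 CPM in mono-IL10 (10 cells). The order over all mice mixes treatments that enter the clusters in different numbers, and within IL10/2-Trikine mice the means were 1366 CPM in Cycling_T, 1275 in gdT/NKT and 1043 in NK cells. Naive CD4 and naive CD8 T cells, at 71.0 and 60.2 CPM, held little Xcl1. Regulatory T cells (Treg) had 0 Xcl1 UMIs in 127 cells, and a count of 0 allows up to 2.36% of cells with a UMI there. Cycling_Treg cells had 0 in 32 cells, which allows up to 9.38%. These limits cover counting error only. Neighbours in this order differed by less than their spread over mice.

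Among these 8 clusters, Ccl5 was highest in naive_CD8T and naive_CD4T cells, where Xcl1 was low. Its mean was 10260 CPM ± 4805 (n = 9) in the naive_CD8T cluster and 7008 ± 4951 (n = 6) in the naive_CD4T cluster. The gdT/NKT cluster at 2807 ± 2348 (n = 12), the Cycling_NK cluster at 2792 ± 1412 (n = 4) and the Cycling_T cluster at 2236 ± 1744 (n = 14) came next. Activated CD4 T cells at 1046 ± 1355 (n = 9), NK cells at 861 ± 539 (n = 15) and regulatory T cells at 770 ± 259 (n = 9) were lowest. This order too mixes treatments: the naive CD8 and naive CD4 means hold no IL10/2-Trikine mice, the Cycling_NK mean holds only those, and activated CD4 T cells had 27.5 CPM in PBS (n = 2) and 2098 CPM in mono-IL10 (n = 4). The cluster names are the authors' own, and terms such as naive CD8 T cells follow them. A Ccl5 UMI was seen in 84.2% of naive_CD8T cells in PBS and 96.9% in mono-IL10, and whether these cells were naive was not tested. In clusters too small for the order, cells summed over mice had 9978 CPM of Ccl5 in ISG+CD8T (16 cells) and 920.8 CPM in naive_T (25 cells). Among the Th17/ILCs cells, 0 of 21 held a Ccl5 UMI, and up to 14.3% remain possible at this number.

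Ccl4 and Ccl3 were sparse in lymphocytes and uneven between mice. Of the 8 clusters, the highest Ccl4 mean was that of Cycling_NK cells, 1627 CPM ± 1623 (n = 4, all IL10/2-Trikine mice, beside 908 CPM in 4 PBS cells and 32.9 CPM in 10 mono-IL10 cells), then activated CD4 T cells at 942 ± 2176 (n = 9), and the other 6 had means of 91.8 to 335 CPM. The 16 ISG+CD8T cells, too few for the order, had 4496 CPM of Ccl4 and 473.3 CPM of Ccl3 when summed over mice. In the same 8 clusters Ccl3 ranged from 314 ± 782 CPM (n = 9) in activated CD4 T cells to 4.25 ± 10.4 (n = 6) in naive CD4 T cells. For both genes the SD of the leading clusters was about as large as the mean or larger, and no neighbours in the order differed beyond their spread. In activated CD4 T cells the highest values, 2397 CPM of Ccl3 and 6711 CPM of Ccl4, were both among the IL10/2-Trikine mice (n = 3). The lowest mouse value of that group was 40.1 CPM for either gene. Its 28 cells of this cluster held 33 Ccl3 UMIs and 98 Ccl4 UMIs, and 10.7% and 21.4% of them had a UMI. The means in PBS and mono-IL10 were 36.3 and 44.7 CPM for Ccl3 and 218 and 122 CPM for Ccl4. The high places of this cluster thus leaned on few cells and are not read as a trait of the treatment.

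**Figure D1:**
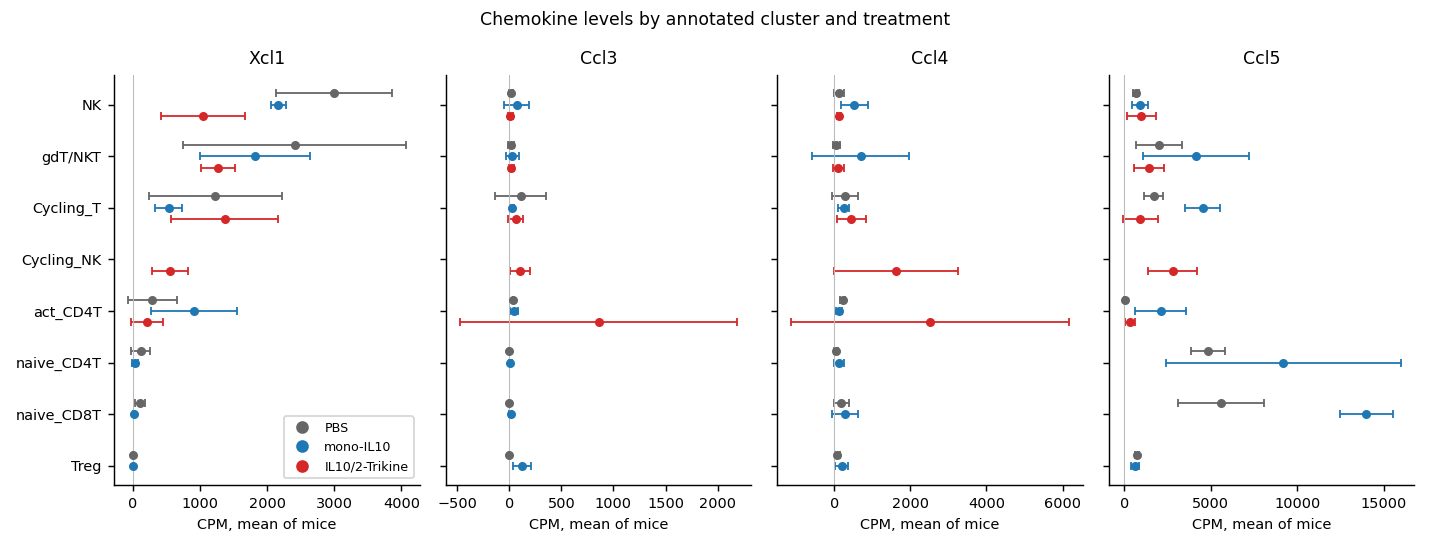
Mean CPM of Xcl1, Ccl3, Ccl4 and Ccl5 (linear x axes) in the annotated clusters with values in at least 3 mice, by treatment (gray PBS, blue mono-IL10, red IL10/2-Trikine). Points are means over mice with at least 5 cells in the cluster, and bars are 1 SD where at least 2 mice had a value. Xcl1 lies toward the NK, gdT/NKT and Cycling_T clusters and Ccl5 toward the naive_CD8T and naive_CD4T clusters, where mono-IL10 reached 13990 CPM.

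The share of cells with a UMI set Xcl1 of NK cells far above free RNA and Ccl3 of lymphocytes close to it. Xcl1 was seen in 88.5%, 73.8% and 51.4% of NK cells in PBS, mono-IL10 and IL10/2-Trikine, at a median of 3106, 4965 and 2604 UMIs per cell. In tumor epithelial-like cells, which should lack it, Xcl1 was seen in 1.04%, 0.882% and 1.46%, at a median of 20140, 28870 and 8903 UMIs. With every cell thinned to 1500 UMIs the NK cell shares were 81.0%, 60.1% and 41.8%, and the tumor cell shares were 0.207%, 0.177% and 0.433%. Ccl3 was seen in 6.32%, 7.99% and 4.23% of NK cells and in 3.51%, 7.76% and 7.02% of T cells, against 10.2%, 6.25% and 5.98% of the deeper tumor epithelial-like cells. After thinning, these shares were 2.58% to 5.37% in NK and T cells and 1.18% to 2.10% in the tumor epithelial-like cells. Without thinning, Ccl3 of lymphocytes thus lay at or near the background share, and at equal depth it lay above it by less than 4 percentage points, so its lymphocyte values are given with no reading as expression. Single cells could hold more, with at most 6, 39 and 5 Ccl3 UMIs in 1 NK cell of PBS, mono-IL10 and IL10/2-Trikine. In 1 T cell the highest counts were 42, 23 and 30. Ccl4 was seen in 14.0% to 24.4% of T cells against 7.87% to 12.4% of tumor epithelial-like cells.

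The summed counts of Ccl4 and Ccl3 varied alike over clusters, although few single lymphocytes with Ccl4 also had Ccl3. Of the NK or T cells with Ccl4 in a treatment, 12.5% to 25% also had Ccl3. Of the few cells with Ccl3, 50% to 77.8% also had Ccl4. Across the 20 sums of a cluster and a treatment with at least 20 cells, the Pearson correlation of log2(CPM + 10) was 0.79 between Ccl3 and Ccl4 and lay between -0.42 and 0.11 for the other pairs of members. The points of such a correlation share 3 libraries and differ in depth, so it is given as a description. Ccl3 averaged 75.4 CPM over these sums, and its correlations too are given with no reading as expression. The part of free RNA in them was not tested. Of the 5922 genes compared in this way, those most like Xcl1 by Pearson's measure were Serpinb9 (0.90), Tmsb10 (0.90) and Sema6d (0.89), and those most like Ccl5 were Klf3 (0.82), Ank (0.79) and Gbp8 (0.79). Epas1 (0.80), Ccl4 (0.79) and Uqcrb (0.76) were most like Ccl3. The closest to Ccl4 were Atf6 (0.82), Ccl3 (0.79) and Nop16 (0.75). By Spearman's measure Serpinb9, Tmsb10, Ank, Gbp8 and Uqcrb were no longer among the 3 closest, and Rhoq (0.90) was closest to Xcl1 and Rras2 (0.89) to Ccl5. Serpinb9 encodes an inhibitor of granzyme B and Klf3 a transcriptional repressor.

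In NK cells (the NK and Cycling_NK clusters), Xcl1 fell under IL10/2-Trikine and was the only member called. Xcl1 was 3863, 2650, 4275, 2471 and 2355 CPM in PBS mice 1 to 5. In mono-IL10 mice 1, 2, 4 and 5 it was 2206, 2394, 2021 and 2859 CPM, and mouse 3, with 9 NK cells, was left out of the fit. IL10/2-Trikine mice 1 to 5 had 838.8, 1387, 195, 1648 and 756.3 CPM. All 5 IL10/2-Trikine mice lay below every mouse of both other groups, whereas PBS and mono-IL10 overlapped. Against PBS the log2 fold change was -1.67 (SE 0.29, adjusted p = 0.0018), a 3.19-fold lower level, and against mono-IL10 it was -1.33 (SE 0.29, adjusted p = 0.017), 2.51-fold lower. Between mono-IL10 and PBS it was -0.34 (SE 0.29, adjusted p = 0.69). Xcl1 is thus 1 of 3 members tested that was called in each comparison with IL10/2-Trikine, where 4.63% of the 2355 genes tested were called against PBS and 2.51% against mono-IL10. Between mono-IL10 and PBS 0 of 3 members and 0.297% of genes were called by edgeR, with 1 of 3 members (Ccl4) at an unadjusted p under 0.05 and 0 called by DESeq2. In sums of this kind, fewer cells that transcribe a gene and less RNA per cell cannot be told apart.

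The NK cluster on its own also had less Xcl1 in IL10/2-Trikine mice. Its level there was 2997 CPM ± 863 in PBS, 2169 ± 110 in mono-IL10 and 1043 ± 629 under IL10/2-Trikine (SD, n = 5 each). Cycling_NK cells of IL10/2-Trikine mice, a cluster with 54 cells there against 4 in PBS and 10 in mono-IL10, had 556 ± 273 CPM (n = 4). With the NK cluster alone the log2 fold change was -1.47 against PBS (adjusted p = 0.0060) and -1.07 against mono-IL10, where the call was lost (adjusted p = 0.075). The call against PBS held in 21 of 21 alternative settings, which here and for the other results include a fit without the filter that gave very small p-values, and that against mono-IL10 in 19 of 21, where it was also lost without IL10/2-Trikine mouse 5 (-1.24, adjusted p = 0.054). The summed level of 5 macrophage genes in NK cells was 29.5 to 362 CPM in PBS, 77.9 to 119 in mono-IL10 and 105 to 220 in IL10/2-Trikine, and its part in the result was not tested.

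The other members in NK cells did not pass the test. Ccl5 was 383 to 1027 CPM in PBS (median 764), 501 to 1405 in mono-IL10 (median 860.0) and 655 to 3135 under IL10/2-Trikine (median 901), with the highest value in IL10/2-Trikine mouse 3. This mouse was also the lowest for Xcl1, at 195 CPM, and the highest for Ccl4, at 1215 CPM. The log2 fold change of Ccl5 was 0.77 against PBS (SE 0.34, adjusted p = 0.23) and 0.43 against mono-IL10 (SE 0.34, adjusted p = 0.59). With the NK cluster alone these were 0.40 (adjusted p = 0.67) and -0.11 (adjusted p = 0.96). A Ccl5 UMI was seen in 43.1%, 47.5% and 25.4% of NK cells in PBS, mono-IL10 and IL10/2-Trikine, and in 36.2%, 36.9% and 22.3% after thinning. Ccl4 was 0 to 494 CPM in PBS, 32.8 to 827 in mono-IL10 and 103 to 1215 in IL10/2-Trikine, and its log2 fold changes were 1.23 (SE 0.79, adjusted p = 0.44) for IL10/2-Trikine and 1.57 (SE 0.75, adjusted p = 0.42) for mono-IL10 against PBS. With the NK cluster alone, without the Cycling_NK cells, the IL10/2-Trikine value turned to -0.15 against PBS (adjusted p = 0.98) and was -2.24 against mono-IL10 (adjusted p = 0.070). The groups overlapped for both genes. Ccl3 did not pass the filter on low counts, with 0 to 127 CPM in PBS, 13.1 to 248 in mono-IL10 and 0 to 75.0 in IL10/2-Trikine.

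In T cells (the remaining 10 clusters), Ccl5 rose with mono-IL10 and fell with IL10/2-Trikine. PBS mice 1 to 5 had 2102, 2668, 1349, 1688 and 756.5 CPM of Ccl5. Mono-IL10 mice had 5443, 4094, 4639, 7433 and 6006 CPM. IL10/2-Trikine mice had 663.2, 608.7, 243.1, 769.4 and 1761 CPM. Every mono-IL10 mouse lay above every other mouse, and 3 of 5 IL10/2-Trikine mice lay below all PBS mice. The log2 fold change was 1.73 for mono-IL10 against PBS (SE 0.27, adjusted p = 0.00049), a 3.31-fold rise, and -2.74 for IL10/2-Trikine against mono-IL10 (SE 0.30, adjusted p = 1.4e-06), 6.69-fold lower. Against PBS the fall with IL10/2-Trikine was smaller, at -1.02 (SE 0.30, adjusted p = 0.035). That last call held in 11 of 23 alternative settings and was lost without PBS mouse 1, 2 or 4 or IL10/2-Trikine mouse 1, 2, 3 or 4, with values of -1.04 to -0.82 and adjusted p of 0.053 to 0.11. It was also lost with DESeq2 (-1.05, adjusted p = 0.11) and without the Cycling_T cluster (-1.29, adjusted p = 0.091).

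**Figure D2:**
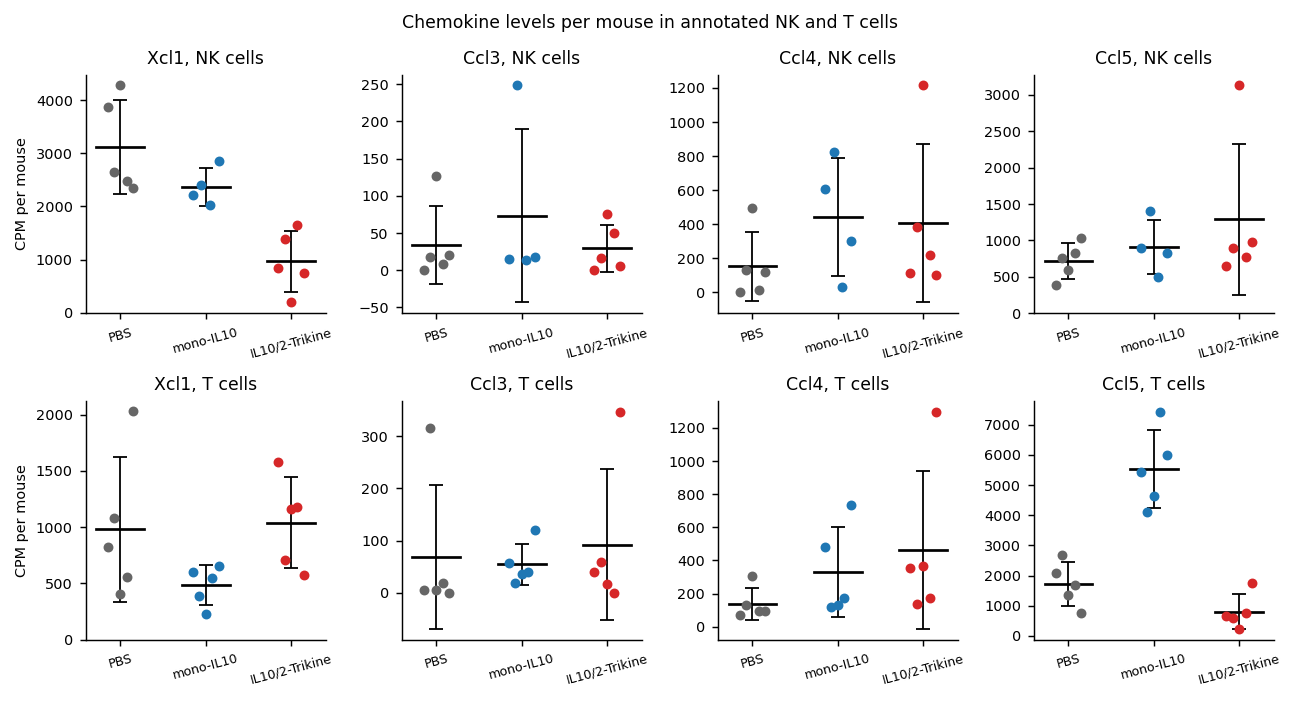
CPM of the 4 members per mouse (linear y axes) in annotated NK cells (top) and T cells (bottom) under PBS, mono-IL10 and IL10/2-Trikine. Each point is 1 mouse with at least 10 cells, horizontal lines are means and bars 1 SD, with 5 mice in each group except 4 in mono-IL10 NK cells. Xcl1 of NK cells lay at 195 to 1648 CPM in IL10/2-Trikine, below all other mice, and Ccl5 of T cells at 4094 to 7433 CPM in mono-IL10, above all other mice.

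Of the 3 members tested in T cells, Ccl5 alone was called between mono-IL10 and PBS, where 1.69% of the 3189 genes tested were called. Against PBS, IL10/2-Trikine changed 1 of 3 members (Ccl5) and 9.03% of genes, and against mono-IL10 it changed 2 of 3 (Ccl5 and Xcl1) and 12.4% of genes. The groups also differed in which T cells they held. Naive CD8 T cells were 12.5% of T cells per mouse in PBS, 24.4% in mono-IL10 and 0.81% under IL10/2-Trikine, while Cycling_T cells were 18.4%, 21.6% and 53.7%. Of the macrophage genes, Lyz2 (lysozyme) was lower in T cells under mono-IL10 (-1.38, adjusted p = 0.0032) and under IL10/2-Trikine (-1.23, adjusted p = 0.019) than in PBS, and the 5 macrophage genes together were 167 to 277 CPM in PBS, 105 to 180 in mono-IL10 and 139 to 308 in IL10/2-Trikine. Their part in the Ccl5 result was not tested.

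Within single T cell clusters, fits that were added after these values had been seen, Ccl5 was called in naive CD8 T cells and in Cycling_T cells. The share of all genes called in these single-cluster fits is not given, so neither a call nor its absence is set against such a share. In naive CD8 T cells it was 5602 CPM ± 2498 in PBS (SD, n = 4) and 13990 ± 1542 in mono-IL10 (n = 5), with ranges of 2409 to 8400 and 12690 to 16120 that did not overlap. The log2 fold change there was 1.23 (SE 0.19, adjusted p = 0.0026). In Cycling_T cells Ccl5 was 1697 ± 564 in PBS (n = 5), 4535 ± 1004 in mono-IL10 (n = 4) and 937 ± 1028 under IL10/2-Trikine (n = 5). The log2 fold change was 1.43 for mono-IL10 against PBS (SE 0.36, adjusted p = 0.048) and -2.23 for IL10/2-Trikine against mono-IL10 (SE 0.37, adjusted p = 0.00035), and IL10/2-Trikine against PBS was not called (-0.81, SE 0.39, adjusted p = 0.30). Of these Cycling_T cells, 73.6% in IL10/2-Trikine but 15% in mono-IL10 and 29.1% in PBS held more NK cell than T cell UMIs (counted as described for Xcl1 below), so the Cycling_T values compare unlike mixtures of cells. With those cells counted as NK cells, Ccl5 of all T cells remained called at -2.64 for IL10/2-Trikine against mono-IL10 (adjusted p = 9.4e-06) and at 1.67 for mono-IL10 against PBS (adjusted p = 0.00092), while IL10/2-Trikine against PBS lost its call (-0.98, adjusted p = 0.073). In gdT/NKT cells the values were 2020 ± 1314 (n = 5), 4138 ± 3054 (n = 5) and 1445 ± 856 (n = 2), and no contrast was called. Naive CD8 T cells of IL10/2-Trikine mice numbered 2 and were not tested. Among clusters that were not fitted, Ccl5 in PBS and mono-IL10 was 4822 ± 983 and 9194 ± 6781 in naive CD4 T cells (n = 3 and 3), 27.5 ± 38.9 and 2098 ± 1464 in activated CD4 T cells (n = 2 and 4) and 735 ± 108 and 641 ± 241 in regulatory T cells (n = 5 and 3). The regulatory T cells thus had no higher mean with mono-IL10.

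Xcl1 in T cells was called in 1 comparison only, and that call depended on the Cycling_T cluster. PBS mice 1 to 5 had 826.2, 1080, 403.6, 559 and 2033 CPM. Mono-IL10 mice had 603.3, 384.5, 224.6, 548.4 and 657.8 CPM, and IL10/2-Trikine mice 1579, 710.9, 1163, 1175 and 570.6 CPM. Of the IL10/2-Trikine mice, 4 of 5 lay above all mono-IL10 mice. PBS overlapped both treated groups, and 2 of 5 mono-IL10 mice lay below all PBS mice. On the log2 scale the change was 1.0 for IL10/2-Trikine against mono-IL10 (SE 0.32, adjusted p = 0.040), -0.88 for mono-IL10 against PBS (SE 0.31, adjusted p = 0.15) and 0.12 for IL10/2-Trikine against PBS (SE 0.32, adjusted p = 0.88).

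In the Cycling_T cluster, cells with more UMIs of 5 NK cell genes than of 5 T cell genes made up 73.6% in IL10/2-Trikine (128 of 174), 29.1% in PBS (16 of 55) and 15% in mono-IL10 (18 of 120). With these cells counted as NK cells, the change of Xcl1 in T cells against mono-IL10 was 0.64 (adjusted p = 0.35), and without the whole cluster it was 0.22 (adjusted p = 0.86). The call was also lost without mono-IL10 mouse 2, 3 or 4 or IL10/2-Trikine mouse 1, 3 or 4, with values of 0.76 to 1.02 and adjusted p of 0.064 to 0.17. In the gdT/NKT cluster the value was -0.53 (adjusted p = 0.77). Only 11 of 23 alternative settings called Xcl1 in this comparison.

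Ccl4 in T cells was 67.8 to 306 CPM in PBS (median 95), 119 to 736 in mono-IL10 (median 175) and 136 to 1298 under IL10/2-Trikine (median 355). All IL10/2-Trikine mice lay above the PBS median, 3 of 5 lay above all PBS mice, and the groups overlapped. The log2 fold change against PBS was 1.82 for IL10/2-Trikine (SE 0.59, adjusted p = 0.051) and 1.31 for mono-IL10 (SE 0.54, adjusted p = 0.24). With 1 mouse left out at a time the IL10/2-Trikine value ran from 0.82, without IL10/2-Trikine mouse 5 (adjusted p = 0.43), to 2.33, without PBS mouse 3 (adjusted p = 0.027), and 9 of 23 alternative settings called it. Single cells could carry many of these UMIs, with up to 207 of Ccl4 in 1 mono-IL10 T cell and up to 83 in 1 IL10/2-Trikine T cell. Ccl3 in T cells did not pass the filter on low counts, with 0 to 316 CPM in PBS, 19.4 to 121 in mono-IL10 and 0 to 347 in IL10/2-Trikine.

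With T and NK cells summed together, Ccl5 and Ccl4 were called. These sums mix the populations in unlike shares. Under IL10/2-Trikine the NK cluster averaged 46.6% of the summed cells per mouse and the Cycling_NK cluster 8.79%. With PBS the shares were 27.8% and 1.05%, and with mono-IL10 they were 28.6% and 1.58%. The part of these shares in the values that follow was not tested beyond the fit without the cycling clusters. Ccl5 was called for mono-IL10 against PBS at 1.5 (SE 0.21, adjusted p = 0.00032) and for IL10/2-Trikine against mono-IL10 at -1.93 (SE 0.22, adjusted p = 2.8e-06), and at -0.43 (SE 0.22, adjusted p = 0.24) it was not called against PBS. Ccl4 was called for IL10/2-Trikine against PBS at 1.54 (SE 0.44, adjusted p = 0.028). For mono-IL10 against PBS it was close to that, at 1.44 (SE 0.43, adjusted p = 0.11), and between the treatments it was 0.10 (SE 0.39, adjusted p = 0.93). For IL10/2-Trikine against PBS, Xcl1 had a log2 fold change of -0.60 (SE 0.20, adjusted p = 0.052) and Ccl3 of 0.18 (SE 0.64, adjusted p = 0.92). Thus 1 of 4 members was called in each comparison, where the shares over the 4595 genes tested were 9.42% for IL10/2-Trikine against PBS, 8.86% for IL10/2-Trikine against mono-IL10 and 1.11% for mono-IL10 against PBS. The Ccl4 call held in 12 of 20 alternative settings. It was lost without the cycling clusters (1.09, adjusted p = 0.31) and without PBS mouse 1, 2, 4 or 5 or IL10/2-Trikine mouse 3 or 5 (1.24 to 1.51, adjusted p of 0.052 to 0.088).

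Whether the effect on a member differed between NK and T cells of the same mice was examined with an exact permutation test over mice, added after the values had been seen, on the difference of log2(CPM + 10) between the populations. The family of 14 comparisons also holds those between neutrophil-like and macrophage or monocyte-like cells that are given further below. Of all 14, 0 passed after adjustment over them, and 5 had an unadjusted p under 0.05. For Xcl1 the effect of IL10/2-Trikine was lower in NK than in T cells with a log2 difference of -2.16 against PBS (two-sided exact p = 0.032, adjusted 0.089) and of -2.42 against mono-IL10 (p = 0.016, exact, the smallest this design allows, adjusted 0.056). With the NK-like Cycling_T cells counted as NK cells, the fitted changes of Xcl1 lay closer together, at -1.39 in NK and -0.32 in T cells against PBS and at -1.04 and 0.64 against mono-IL10, in place of -1.67 and 0.12 and of -1.33 and 1.0, and the permutation test was not repeated there. For Ccl5 the effect against mono-IL10 was 3.38 higher in NK than in T cells (p = 0.016, exact, the smallest possible, adjusted 0.056).

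**Figure D3:**
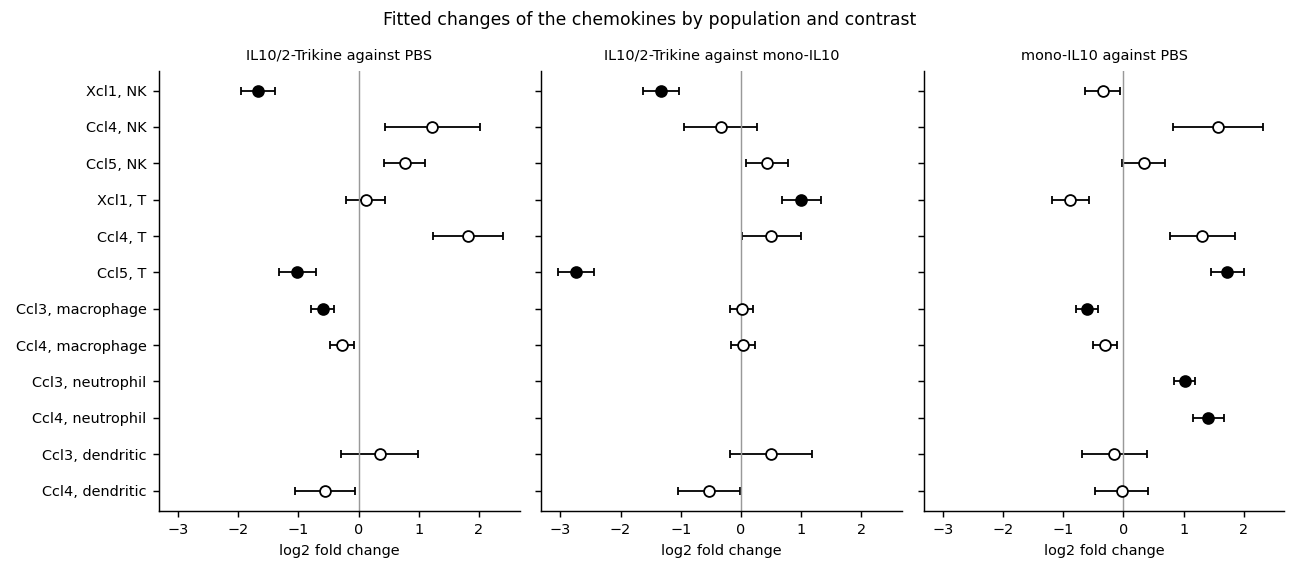
Log2 fold changes of the members by population in the 3 comparisons, from edgeR's quasi-likelihood fits. Points are estimates, bars 1 standard error, and filled points have an adjusted p under 0.05. Ccl5 was called in T cells in all 3 comparisons. Its values were -1.02 for IL10/2-Trikine against PBS, -2.74 for IL10/2-Trikine against mono-IL10 and 1.73 for mono-IL10 against PBS. Neutrophil-like cells could be tested for mono-IL10 against PBS only.

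The myeloid cells held far more of the Ccl3 and Ccl4 transcripts than the annotated lymphocytes. Of all Ccl3 UMIs in the 92853 barcodes kept, 38.1% were in 19792 macrophage or monocyte-like cells, 6.79% in 909 neutrophil-like cells and 0.642% in 1274 dendritic cell-like cells, against 0.115% in annotated NK cells and 0.222% in annotated T cells. Ccl4 had 42.6%, 2.90%, 1.67%, 0.386% and 0.507% in the same cells. For Xcl1 the annotated NK cells (863) held 18.6% and annotated T cells (1221) 11.6%, and for Ccl5 they held 2.00% and 9.62%. Cells in clusters that met no single marker list held 58.7% of Xcl1, 45.8% of Ccl3, 44.3% of Ccl4 and 61.4% of Ccl5, and they enter no comparison here. Of these, a cluster of 1624 cells led by Il2rb, Gzma, Gzmb and Nkg7, genes of cytotoxic lymphocytes, held 12.8% of Xcl1. It scored for NK cell and for macrophage markers. Counted with 3 annotated cells, it held 196 cells from PBS, 223 from mono-IL10 and 1208 from IL10/2-Trikine. The NK cells tested for Xcl1 were thus a part of the cells with NK cell genes, in unlike shares by treatment.

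In neutrophil-like cells Ccl3 and Ccl4 rose with mono-IL10. Ccl3 was 2740, 2925, 1567, 1388 and 1896 CPM in PBS mice 1 to 5 and 3926, 3895, 5105, 3553 and 4528 CPM in mono-IL10 mice 1 to 5. All mono-IL10 mice lay above all PBS mice. Ccl4 was 2812, 2129, 1454, 1204 and 1823 CPM in PBS mice and 3737, 2626, 6533, 3878 and 7915 CPM in mono-IL10 mice. Here 4 of 5 mono-IL10 mice lay above every PBS mouse. In the fit the log2 change was 1.02 for Ccl3 (SE 0.18, adjusted p = 0.0040), a 2.02-fold rise, and 1.41 for Ccl4 (SE 0.26, adjusted p = 0.0055), a 2.65-fold rise. Both members tested were called, where 1.04% of the 1829 genes tested were called, and both calls held in 15 of 15 alternative settings, which gave 0.89 to 1.17 for Ccl3 and 1.17 to 1.60 for Ccl4.

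The neutrophil-like sums rested on 28 to 119 cells per mouse. The share of cells with a UMI was 77% in PBS and 80.5% in mono-IL10 for Ccl3 and 55.2% and 49.8% for Ccl4, so the share of cells with Ccl4 was not higher in mono-IL10. S100a8 and S100a9, the neutrophil genes, summed to 24310 to 48360 CPM in PBS and 31150 to 39950 in mono-IL10, and the 5 macrophage genes to at most 1157 CPM in every mouse of both groups. Among the latter, Lyz2 was lower in mono-IL10 (-1.23, SE 0.21, adjusted p = 0.0037), and its part in the Ccl3 and Ccl4 results was not tested. In the same comparison Tnf rose (1.26, SE 0.18, adjusted p = 0.0017), 1 of 2 cytokine genes tested. Cxcl2, a chemokine for neutrophils, also rose (0.55, SE 0.13, adjusted p = 0.046), 1 of 7 other chemokine ligands tested. Of 12 immediate early genes, 0 were called by edgeR, with 4 at an unadjusted p under 0.05 and 1 called by DESeq2. Over all genes tested 1.04% were called, so 0 of 12 lies near that share and is not read as an absence of change. IL10/2-Trikine mice had 27 neutrophil-like cells in all and at most 9 in 1 mouse, so no test was made. Among these 27 cells, 96.3% had a Ccl3 UMI and 70.4% a Ccl4 UMI. Other clusters led by S100a8 and S100a9 also scored for macrophage, T cell or tumor markers and were left unnamed. They held 1600, 777, 452 and 1789 cells. Of these, 816, 604, 187 and 544 were from PBS, 403, 95, 170 and 274 from mono-IL10 and 381, 78, 95 and 971 from IL10/2-Trikine. The neutrophil-like cells tested were thus a part of the cells with neutrophil genes, in unlike shares by treatment. The 27 cells of IL10/2-Trikine do not measure how many neutrophils its tumors held.

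Macrophage or monocyte-like cells showed the reverse for Ccl3, and a smaller change. Ccl3 was 752.3, 777, 502, 341.3 and 517.8 CPM in PBS mice 1 to 5. It was 337.4, 360.6, 488.1, 284.5 and 304.8 CPM in mono-IL10 mice and 366.4, 321, 396.4, 465.3 and 372.9 CPM in IL10/2-Trikine mice. Of the PBS mice, 4 of 5 lay above all treated mice, and the lowest PBS mouse lay within both treated groups. The change was -0.61 on the log2 scale for mono-IL10 (SE 0.19, adjusted p = 0.022), 1.52-fold lower, and -0.59 for IL10/2-Trikine (SE 0.19, adjusted p = 0.036), 1.51-fold lower. The treated groups had a difference of 0.01 between them (SE 0.19, adjusted p = 0.99). Of Ccl3 and Ccl4, 1 was called against PBS in each treatment, where 24.7% of the 12121 genes tested were called for mono-IL10 and 17.9% for IL10/2-Trikine, and 0 of 2 were called by edgeR between the treatments, where 11.3% were, with 0 at an unadjusted p under 0.05 and 0 called by DESeq2.

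These Ccl3 calls leaned on the high PBS mice. The mono-IL10 call was lost without PBS mouse 1 or 2 or mono-IL10 mouse 4 (-0.54 to -0.45, adjusted p of 0.059 to 0.073). The IL10/2-Trikine call was lost without PBS mouse 1 or 2 or IL10/2-Trikine mouse 1, 2, 3 or 5 (-0.60 to -0.43, adjusted p of 0.057 to 0.11). They held in 17 of 20 and 13 of 20 alternative settings. Lyz2 was lower in both treated groups (-0.87 each, adjusted p = 7.8e-07 for mono-IL10 and 1.7e-06 for IL10/2-Trikine), and the 5 macrophage genes summed to 11490 to 13080 CPM in PBS, 8641 to 10480 in mono-IL10 and 9295 to 10570 in IL10/2-Trikine. Median depth of these cells was 4849, 6203 and 2775 UMIs, and in IL10/2-Trikine 3 of 3 tumor keratin genes tested (Krt8, Krt18 and Krt19) were higher than in PBS. Their part in the Ccl3 result was not tested.

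Ccl4 in macrophage or monocyte-like cells was 862 to 1921 CPM in PBS (median 1361), 972 to 1404 in mono-IL10 (median 981) and 971 to 1717 under IL10/2-Trikine (median 999.8). The groups overlapped, and the log2 fold changes against PBS were -0.31 (SE 0.20, adjusted p = 0.28) and -0.27 (SE 0.20, adjusted p = 0.39). Across the 14 clusters of these cells, Ccl3 averaged from 162 to 817 CPM and Ccl4 from 486 to 2454 CPM. Both were highest in a cluster led by Rasgef1b, Ccl7, Cd83 and Cx3cr1 and about equally low in a cluster led by Cd74 and H2-Aa (162 and 486 CPM) and one led by Nrg1 and Apoe (172 and 488 CPM), while other clusters with MHC class II genes among their leading genes had more Ccl4. The groups held these clusters in different shares: the highest cluster made up 16.5% of the macrophage or monocyte-like cells per mouse in PBS, 1.57% in mono-IL10 and 0.944% with IL10/2-Trikine, and the Nrg1 and Apoe cluster 4.21%, 15.4% and 8.66%. The part of these shares in the Ccl3 result for all macrophage or monocyte-like cells was not tested beyond the within-cluster values that follow. Ccl3 was below its PBS mean in 13 of 14 clusters under mono-IL10 and in 11 of 14 under IL10/2-Trikine, with a median log2 ratio of -0.46 and -0.34. Ccl4 was below PBS in 6 of 14 and 4 of 14 clusters. Clusters of 1 mouse are not replicates, and these counts are given as a description.

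**Figure D4:**
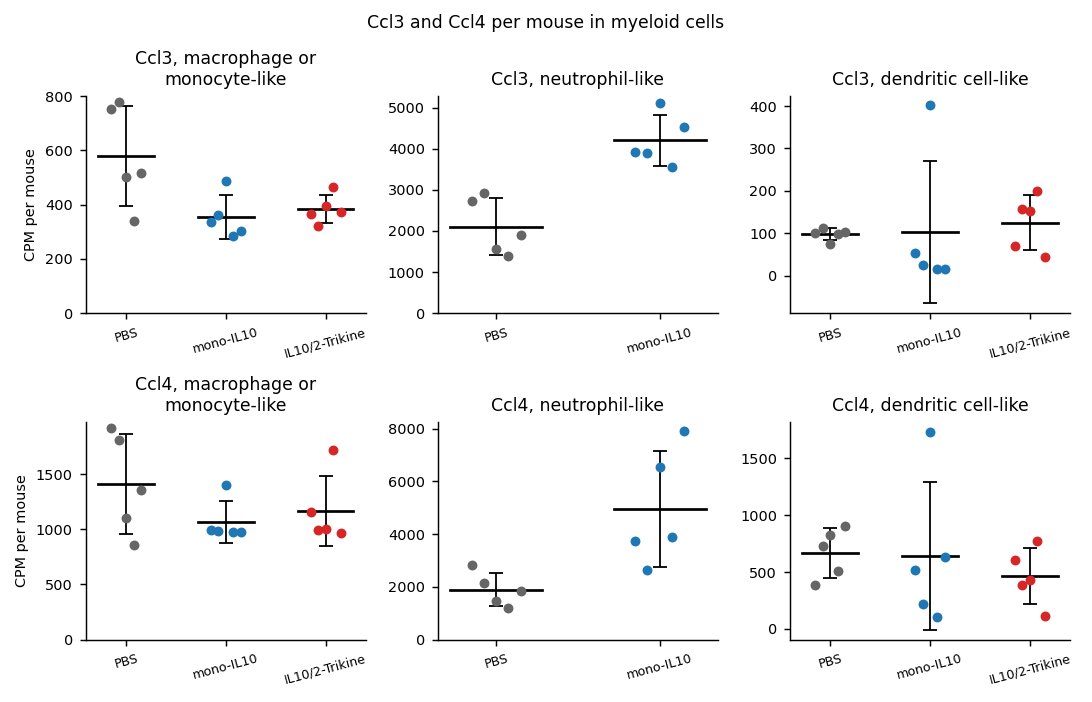
CPM of Ccl3 and Ccl4 per mouse (linear y axes) in macrophage or monocyte-like, neutrophil-like and dendritic cell-like cells by treatment. Each point is 1 mouse with at least 10 cells, horizontal lines are means and bars 1 SD (n = 5, with IL10/2-Trikine absent from neutrophil-like cells). Ccl3 of neutrophil-like cells lay at 3553 to 5105 CPM in mono-IL10 above 1388 to 2925 CPM in PBS, while Ccl3 of macrophage or monocyte-like cells was highest in PBS.

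The change of both genes with mono-IL10 was compared between neutrophil-like and macrophage or monocyte-like cells of the same mice within the family of 14 comparisons above. It was higher in neutrophil-like cells by a log2 difference of 1.70 for Ccl3 and 1.69 for Ccl4 (p = 0.0079 each, exact and two-sided, the smallest 5 against 5 mice allow), and adjusted over the 14 it was 0.056. Ccl3 and Ccl4 also shared cells. In neutrophil-like cells 87.7% of PBS cells with Ccl4 also had Ccl3, and 93.7% did in mono-IL10, while 62.9% and 58.0% of those with Ccl3 had Ccl4. Among macrophage or monocyte-like cells the shares were 73.4%, 62.9% and 56.1% of the cells with Ccl4 in PBS, mono-IL10 and IL10/2-Trikine, and 76.9%, 73.4% and 73.1% of those with Ccl3.

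In dendritic cell-like cells neither gene was called. Ccl3 was 75.4 to 112 CPM in PBS, 15.7 to 401 in mono-IL10 and 44.7 to 199 in IL10/2-Trikine, and Ccl4 was 385 to 901, 102 to 1733 and 112 to 771 CPM. Mono-IL10 mouse 3, with 27 of these cells, was the highest of its group for both, and the other 4 mono-IL10 mice lay below all PBS mice for Ccl3. Without it Ccl3 was called for mono-IL10 against PBS (-1.54, adjusted p = 0.0088) and for IL10/2-Trikine against mono-IL10 (1.89, adjusted p = 0.0057), and with it the values were -0.15 (adjusted p = 0.96) and 0.50 (adjusted p = 0.82). The count of 0 of 2 members called by edgeR compares with 2.47% of the 4825 genes tested for mono-IL10 against PBS, 0.249% for IL10/2-Trikine against PBS and 2.47% for IL10/2-Trikine against mono-IL10. At an unadjusted p under 0.05 the count was 0 of 2 in each, and DESeq2 called 0.

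Receptors of the members differed in where they were found. Xcr1, the receptor of XCL1, was 53.9 CPM ± 27.0 (SD, n = 15) in dendritic cell-like cells and at most 1.54 CPM on average in NK, T, macrophage or monocyte-like and neutrophil-like cells. Ccr1 averaged 678 CPM ± 113 (n = 10) in neutrophil-like cells and 279 ± 34.5 (n = 15) in macrophage or monocyte-like cells. Ccr3 stayed at or below 6.73 CPM on average in these populations, and Ackr2, a receptor that clears CC chemokines, had 0 UMIs in NK, T, macrophage or monocyte-like, neutrophil-like and dendritic cell-like cells.

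Ccr1 was tested in macrophage or monocyte-like cells, where mono-IL10 raised it against PBS (0.38, SE 0.07, adjusted p = 0.00065). With IL10/2-Trikine it was lower than with mono-IL10 (-0.34, SE 0.07, adjusted p = 0.0062).

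Of a list of 29 other chemokine ligands, only 2 passed the filter on low counts in NK cells and 4 in T cells. Of the 2 tested in NK cells, Ccl8, a ligand for monocytes, was higher with IL10/2-Trikine than in PBS (1.46, SE 0.36, adjusted p = 0.019) and in mono-IL10 (1.42, SE 0.29, adjusted p = 0.011). This was 1 of 2 in each comparison, where 4.63% and 2.51% of all genes tested were called. DESeq2 called 1 of 2 against PBS and gave no adjusted p against mono-IL10. Ccl8 was also higher in macrophage or monocyte-like cells of IL10/2-Trikine mice (1.35, adjusted p = 3.1e-05) and mono-IL10 mice (1.38, adjusted p = 1.2e-05) than in PBS. Whether free RNA of those cells was a source of Ccl8 in NK cells was not tested. Of the 4 tested in T cells, 0 were called in any comparison by edgeR or DESeq2, with 1, 1 and 2 at an unadjusted p under 0.05 for IL10/2-Trikine against PBS, IL10/2-Trikine against mono-IL10 and mono-IL10 against PBS. Over all genes tested in T cells, 9.03%, 12.4% and 1.69% were called in these comparisons. In macrophage or monocyte-like cells 22 were tested. With IL10/2-Trikine against PBS 5 were higher (Ccl6, Ccl8, Ccl9, Ccl12 and Ccl24) and 1 lower (Cxcl10), and with mono-IL10 against PBS 5 were higher (Ccl8, Ccl9, Ccl24, Cxcl16 and Ppbp) and 3 lower (Ccl2, Ccl11 and Ccl17). These are 6 of 22 and 8 of 22, where 17.9% and 24.7% of all genes tested were called. The median over the list was -0.04 and 0.13, beside 0.00 and -0.01 over all genes tested. Dendritic cell-like cells had lower Ccl17, a ligand of CCR4, with both treatments (-1.20, adjusted p = 0.010, for IL10/2-Trikine and -1.35, adjusted p = 0.00030, for mono-IL10). Of the 15 ligands tested there, 1 was lower with IL10/2-Trikine and 3 with mono-IL10 (Ccl9, Ccl17 and Ccl22), beside 0.249% and 2.47% of all genes, and the list median was -0.02 and -0.58, beside 0.01 and -0.01 over all genes tested.

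Of a list of 7 lymphocyte cytokine genes, 4 were tested in T cells. Ltb (lymphotoxin beta) fell with IL10/2-Trikine against PBS (-1.12, SE 0.31, adjusted p = 0.023) and against mono-IL10 (-1.31, SE 0.29, adjusted p = 0.0032). This was 1 of 4 in each, where 9.03% and 12.4% of all genes tested were called. Naive CD8 T cells made up 12.5% of T cells per mouse in PBS, 24.4% in mono-IL10 and 0.81% under IL10/2-Trikine. The part of these shares in the Ltb result was not tested. The 1 cytokine gene tested in NK cells was not called, with an unadjusted p under 0.05 for IL10/2-Trikine against mono-IL10 only. Over all genes tested in NK cells, 4.63% were called for IL10/2-Trikine against PBS, 2.51% against mono-IL10 and 0.297% for mono-IL10 against PBS. Immediate early genes, which dissociation of tissue can induce and which often move with Ccl3 and Ccl4, were called in 0 of 8 in NK cells in each comparison by edgeR, with 2 to 4 at an unadjusted p under 0.05 and at most 1 called by DESeq2. In T cells 1 of 12 was called, Fosb, for IL10/2-Trikine against mono-IL10 (1.03, SE 0.32, adjusted p = 0.036), which is no more than the 12.4% of all genes called there, and DESeq2 called 0 of 12. In macrophage or monocyte-like cells, where 14 were tested, 5 were higher and 2 lower with mono-IL10 against PBS, 0 higher and 4 lower with IL10/2-Trikine against PBS, and 1 higher and 7 lower with IL10/2-Trikine against mono-IL10, beside 24.7%, 17.9% and 11.3% of all genes tested. Ccl3 was lower in both comparisons with PBS, and the part of these genes in its change was not tested.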

How the data were processed

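The authors processed the reads with Cell Ranger (9.0.1 in the matrix headers, genome build GRCm39) and deposited raw UMI counts for the filtered barcodes of 3 libraries, each with 5 hashtag features. Their deposited cell table gives counts per cell, percent of mitochondrial UMIs, mouse and 1 of 12 clusters for T and NK cells. A further 7858 of its cells belong to no sample analysed here and were not used. The authors' notes name Seurat 5.1.0 and DESeq2 1.46.0.

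Annotated cells kept their deposited mouse and cluster. Other barcodes with at least 1000 genes and at most 10% mitochondrial UMIs were assigned to mice with HTODemux (Seurat 5.3.0, positive quantile 0.99). Those with more than 1 hashtag (8.50% to 12.2% per library) were left out as doublets. For annotated cells, 93.2% to 98.8% of these assignments matched the deposited mouse, and 0 gave another mouse. Remaining cells were grouped into 60 k-means clusters on 40 principal components of 2000 variable genes, without the 4 members (scikit-learn 1.9.0, NumPy 2.4.6, SciPy 1.17.1, pandas 2.3.3, Python 3.11.15), and named from marker lists. A name required a score of 0.25 or more, 3 or more detected markers, and a score under 0.25 of the best for each other lineage.

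Raw counts were summed per mouse for mice with at least 10 cells (33913 to 333657 UMIs per mouse in NK cells, 46789 to 661363 in T cells) and tested with edgeR 4.0.16 (limma 3.58.1, R 4.3.3): TMM scaling, filterByExpr and glmQLFTest with all groups in 1 fit. The p-values measure the spread between mice within 1 library per treatment. Methods were tested on simulated data. Alternatives were DESeq2 size factors, the DESeq2 1.42.0 Wald test, no filter, thinning to 1 total, each mouse left out, other cell groupings and 40 clusters. The fits within single T cell clusters, the 5-cell minimum for NK cells and the permutation tests were added after values had been seen. The members and gene lists were chosen with earlier results of these data known. Named genes were the members, list genes past the threshold, and for each member the 3 genes with the highest Pearson correlation over clusters. Clusters and receptors outside that rule are named where a count rests on them. Some genes that the rule would name are not reported here. No promoter or protein sequence is shown, since no value here bears on one.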

Additional observations from a re-analysis of the deposited data

Results flagged for a closer look

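Among 52 groups of 4 or 5 mice (1 member, population and treatment each) examined with Dixon's ratio (the gap of an extreme mouse to its nearest neighbour over the whole range of the group), 15 held a mouse beyond the 95% critical value. That value assumes normally distributed levels, whereas some of these levels rest on few UMIs. The groups of T and NK cells summed also repeat cells of the separate groups. The count of 15 is therefore set against no chance rate. All 15 were high mice. In NK cells they were PBS mouse 3 for Ccl3 (ratio 0.842, 127 CPM from 9 UMIs, others 0 to 20.1) and for Ccl4 (0.736, 494 CPM, others 0 to 130), mono-IL10 mouse 2 for Ccl3 (0.982, 248 CPM, others 13.1 to 17.2), and IL10/2-Trikine mouse 3 for Ccl4 (0.750, 1215 CPM, others 103 to 381) and for Ccl5 (0.870, 3135 CPM, others 655 to 978).

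In T cells they were PBS mouse 2 for Ccl3 (0.942, 316 CPM, others 0 to 18.3), IL10/2-Trikine mouse 5 for Ccl3 (0.832, 347 CPM, others 0 to 58.4) and for Ccl4 (0.803, 1298 CPM, others 136 to 365), and PBS mouse 3 for Ccl4 (0.737, 306 CPM, others 67.8 to 130). With T and NK cells summed, PBS mouse 2 (0.808, 192 CPM) and IL10/2-Trikine mouse 5 (0.787, 141 CPM) stood apart for Ccl3 and PBS mouse 3 (0.756, 360 CPM) for Ccl4, on the same cells. In macrophage or monocyte-like cells mono-IL10 mouse 3 (0.956, 1404 CPM, others 972 to 991) and IL10/2-Trikine mouse 4 (0.752, 1717 CPM, others 971 to 1156) were high for Ccl4, and in dendritic cell-like cells mono-IL10 mouse 3 was high for Ccl3 (0.901, 401 CPM, others 15.7 to 54.0).

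In 5 cases the effect on a member differed between populations of the same mice at an unadjusted exact permutation p under 0.05, and 0 of the 14 compared passed after adjustment. The effect of IL10/2-Trikine on Xcl1 in NK minus T cells was -2.16 against PBS and -2.42 against mono-IL10, and with the NK-like Cycling_T cells counted as NK cells the fitted changes against PBS were -1.39 in NK and -0.32 in T cells, closer together than -1.67 and 0.12. The effect of IL10/2-Trikine on Ccl5 in NK minus T cells was 3.38 against mono-IL10. The effect of mono-IL10 in neutrophil-like minus macrophage or monocyte-like cells was 1.70 for Ccl3 and 1.69 for Ccl4.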

How the results depend on the processing

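Of 44 tests of members, 13 were called, where the share of all genes called ran from 0.249% to 24.7% by population and comparison. The tests of T and NK cells summed use the same cells as the separate tests, so the 44 are not independent. Apart from leaving out mice, 227 alternatives kept direction and call, 14 gained a call, 16 lost one and 1 reversed. With mice left out in turn, 596 kept, 16 gained and 29 lost. No paired analysis was possible because hashtag numbers do not link mice of different treatments. Values are log2 fold changes, and the cause of a change was not tested unless the setting itself removed cells or mice.

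Without a filter on low counts, calls were gained in NK cells for Ccl4 (1.33 and 1.78, IL10/2-Trikine and mono-IL10 against PBS) and Ccl5 (0.83, IL10/2-Trikine against PBS), in T cells for Ccl4 (1.69 and 1.37) and Xcl1 (-0.80, mono-IL10 against PBS), in T and NK cells for Xcl1 (-0.62) and Ccl5 (-0.46) with IL10/2-Trikine and Ccl4 (1.51) with mono-IL10 against PBS, and in dendritic cell-like cells for Ccl4 with IL10/2-Trikine (-0.73 against PBS, -0.67 against mono-IL10). These gained calls had adjusted p of 1.8e-20 to 0.00039, far below those of the filtered fit, and nothing is rested on them. The DESeq2 test lost Ccl5 (-1.05) of T cells, Ccl4 (1.59) of T and NK cells and Ccl3 (-0.59) of macrophage or monocyte-like cells for IL10/2-Trikine against PBS, and Xcl1 (1.07) of T cells against mono-IL10. After thinning, Ccl4 of T cells (1.95) and Xcl1 of T and NK cells (-0.63) against PBS were called, and Xcl1 of T cells (1.03) against mono-IL10 was not.

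With the NK cluster alone, Xcl1 of IL10/2-Trikine against mono-IL10 was no longer called (-1.07). In T cells the IL10/2-Trikine values of Ccl5 against PBS and Xcl1 against mono-IL10 lost their calls without Cycling_T (-1.29 and 0.22), with its NK-like cells moved (-0.98 and 0.64), in Cycling_T alone (-0.81 and 1.30) and in gdT/NKT alone (-0.34 and a reversed -0.53), where Ccl5 against mono-IL10 (-1.43) and of mono-IL10 against PBS (1.08) also lost theirs. Without cycling clusters, Xcl1 of T and NK cells was called (-0.78) and Ccl4 was not (1.09), for IL10/2-Trikine against PBS.

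Ranges with each mouse left out, for results whose call changed, were, for IL10/2-Trikine against PBS, 0.82 to 2.33 for Ccl4 and -1.56 to -0.82 for Ccl5 in T cells, -0.77 to -0.46 for Xcl1, 1.24 to 2.21 for Ccl4 and -0.66 to -0.29 for Ccl5 in T and NK cells, and -0.74 to -0.43 for Ccl3 in macrophage or monocyte-like cells. Against mono-IL10 they were -1.58 to -1.09 for Xcl1 in NK cells, 0.76 to 1.17 for Xcl1 in T cells and 0.19 to 1.89 for Ccl3 in dendritic cell-like cells. For mono-IL10 against PBS they were 1.23 to 2.11 for Ccl4 in T and NK cells, -0.77 to -0.45 for Ccl3 in macrophage or monocyte-like cells and -1.54 to 0.16 for Ccl3 in dendritic cell-like cells. Calls were gained for Ccl4 of T cells without PBS mouse 3, mono-IL10 mouse 2, 3, 4 or 5 or IL10/2-Trikine mouse 2 or 4, for Xcl1 of T and NK cells without PBS mouse 4, mono-IL10 mouse 5 or IL10/2-Trikine mouse 1 or 4, for Ccl5 of T and NK cells without IL10/2-Trikine mouse 3, and for Ccl4 of T and NK cells with mono-IL10 without PBS mouse 3 or mono-IL10 mouse 4. Thinning cells moved 19 of 80 shares of cells with a UMI, and 5 of 12 correlations moved with Spearman's measure.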
